A study of Homo sapiens with 12 samples.

Results

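The 10 antioxidant enzyme genes GPX1, GPX2, GPX3, GPX4, SOD1, SOD2, CAT, PRDX3, PRDX5 and TXN were followed through 2 human cell lines with and without mitochondrial DNA. They were selected by gene symbol, as the peroxidases, dismutases, catalase and thioredoxin that remove superoxide and hydrogen peroxide, and the selection was made with the ρ° against ρ+ signals of these arrays already known, so that their changes are given as descriptions without a test. Of the 10 genes, 8 had at least 1 probe set of their own, among 11963 genes with a probe set of their own on the array. SOD2 was represented only by 4 probe sets annotated to SOD2 together with SOD2-OT1, and PRDX5 had no probe set in the annotation used here. The members thus had 17 probe sets, of which 13 belonged to a single gene. After a filter on low signals, 12 of those 13 were kept in each line.

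RNA was measured on 12 Affymetrix HG-U133A arrays, 3 for each of 4 groups. A549 ρ° cells were lung carcinoma cells depleted of mitochondrial DNA, and A549 ρ+ cells were the undepleted parental cells. 143BTK- ρ° cells were osteosarcoma cells deficient in thymidine kinase that were depleted of mitochondrial DNA, and 143BTK- ρ+ cells were their undepleted parental cells. Depletion was by ethidium bromide at 50 ng/ml for 3 weeks, and all 4 groups were grown in high-glucose medium with 10% serum, 1 mM pyruvate and 50 µg/ml uridine. The ρ° cells were a pool and not a selected clone. The 3 arrays of a group came from separate RNA extractions, which the study treats as biological replicates. Separate depletions of a line are not described, so p-values measure the spread between these samples. In such bulk RNA, fewer cells expressing a gene and less RNA per cell cannot be told apart.

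Superoxide leaks from the respiratory chain. Superoxide dismutases turn it into hydrogen peroxide, SOD1 in the cytosol and SOD2 in the mitochondrial matrix. Hydrogen peroxide is then removed by catalase in peroxisomes, by glutathione peroxidases, which draw on reduced glutathione, and by peroxiredoxins, which are recharged by thioredoxin. GPX1 to GPX4 are selenoproteins, and GPX2 is the glutathione peroxidase known from gut and other epithelia. Antioxidant response elements are short promoter motifs bound by NRF2, a factor that switches on many genes of this system.

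The promoters of GPX2, GPX3 and TXN are shown because these are the members whose signals fell in A549 ρ° cells. Each line holds the 250 bases immediately upstream of the RefSeq start, 5′ to 3′ on the gene's own strand, in build GRCh38.p14. Capitals mark matches to the antioxidant response element core TGACNNNGC or to the GC box GGGCGG, searched on both strands. GPX2 lies at chr14:64942746-64942995 on the minus strand, GPX3 at chr5:151020341-151020590 on the plus strand, and TXN at chr9:110256508-110256757 on the minus strand.
GPX2: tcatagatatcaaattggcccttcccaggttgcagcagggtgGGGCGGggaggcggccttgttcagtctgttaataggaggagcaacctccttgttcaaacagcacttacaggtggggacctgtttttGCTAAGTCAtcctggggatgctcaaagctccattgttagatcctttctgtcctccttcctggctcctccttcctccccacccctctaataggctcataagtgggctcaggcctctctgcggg
GPX3: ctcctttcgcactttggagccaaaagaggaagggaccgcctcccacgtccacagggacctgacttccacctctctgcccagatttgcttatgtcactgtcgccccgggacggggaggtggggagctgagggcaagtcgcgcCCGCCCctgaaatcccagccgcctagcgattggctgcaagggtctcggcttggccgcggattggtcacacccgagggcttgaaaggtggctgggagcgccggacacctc
TXN: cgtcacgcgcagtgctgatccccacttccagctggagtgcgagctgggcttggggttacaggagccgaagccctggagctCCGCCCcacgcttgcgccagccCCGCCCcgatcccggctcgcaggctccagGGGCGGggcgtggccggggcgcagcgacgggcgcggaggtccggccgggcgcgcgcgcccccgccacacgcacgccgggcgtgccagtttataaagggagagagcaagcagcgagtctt

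In the GPX2 window the element core was read on the opposite strand, 122 to 114 bases upstream of the start, where the gene's strand reads GCTAAGTCA, and it did not overlap the GC box that starts 208 bases upstream. The element core was found in 1 of 15 member windows, that of GPX2, and in 10.9% of the 35116 windows of the same length in the RefSeq table. The GC box was found in 15 of 15 member windows, over 9 genes, and in 42.6% of all windows. Some of the 15 windows belong to the same gene and are not independent, and the shares were not compared by a test. SOD1 had no window in the table used. A match is a description of the letters and was not tested as a binding site.

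GPX2 had the largest change among the members. In A549 ρ° cells its probe set 202831_at gave signals of 40.3, 21.9 and 51.3 on the 3 arrays, against 1511.7, 1511.7 and 1375.4 in A549 ρ+ cells. All 3 ρ° arrays lay far below all 3 ρ+ arrays, and the groups did not overlap. The log2 change was −5.36 ± 0.29 (SE, n = 3 each), with a 95% interval of −6.00 to −4.72, which is 41.1-fold lower in ρ° cells. The ρ° signals were near the array median of 31.4 and their geometric mean, 35.6, was above the lowest geometric mean kept in A549, 19.0. The fold depends on how such low signals are treated. With 64 added to every signal before the logarithm, the change was −3.92, and with 16 added, −4.82.

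In 143BTK- cells the same probe set gave signals of 16.1, 21.9 and 22.1 in ρ° cells, against 27.3, 10.9 and 29.0 in ρ+ cells. The groups overlapped and the log2 change was −0.05 ± 0.45 (SE, n = 3 each), with a 95% interval of −1.07 to 0.97. The geometric means were 19.8 in ρ° cells and 20.5 in ρ+ cells, where the lowest one kept in this line was 12.4 and the array median 27.6, and whether GPX2 RNA was present at all in 143BTK- cells was not tested. The change in A549 minus that in 143BTK- was −5.31 ± 0.54 (SE) on the log2 scale. Signals this low left no room in 143BTK- for a fall of the A549 size. Signals of the 2 lines were normalized separately, so levels are compared only within a line.

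**Figure D1:**
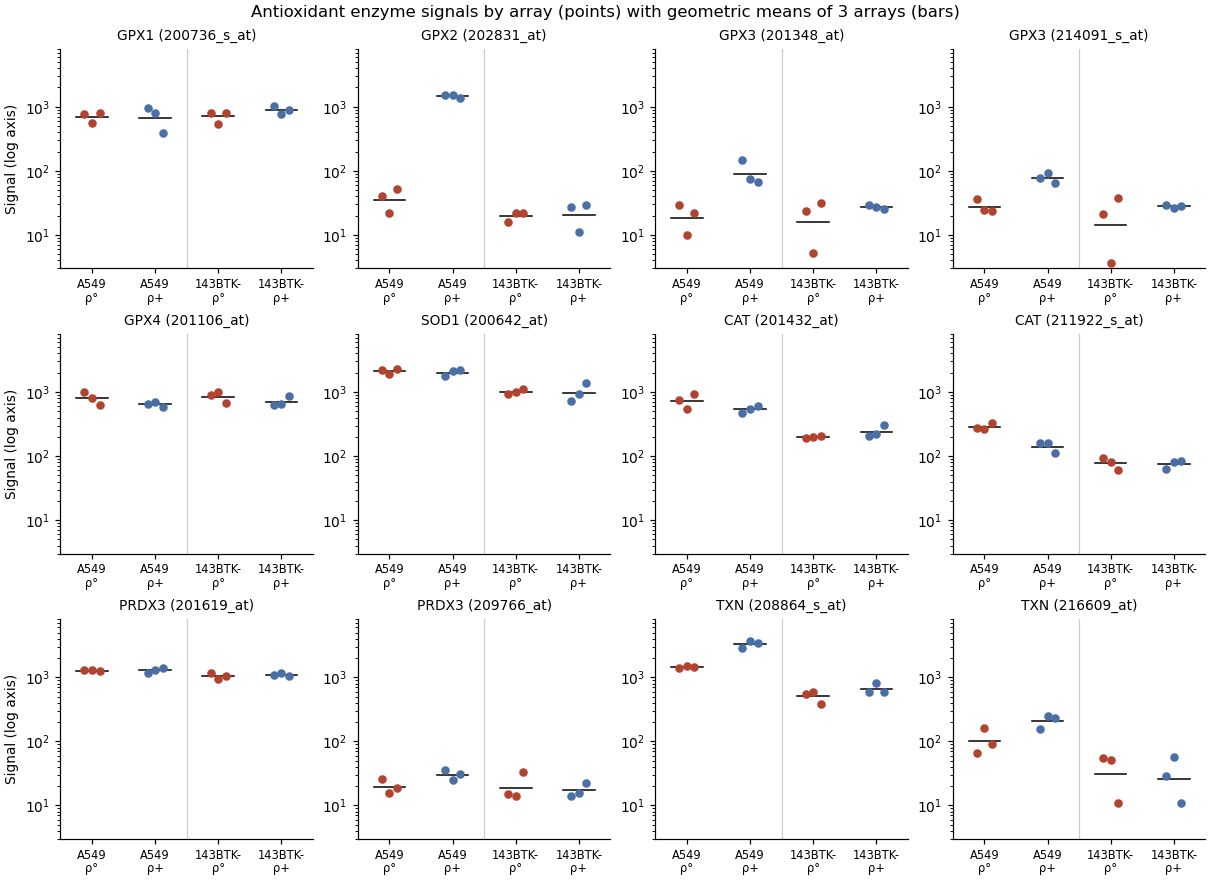
Normalized signal of the kept member probe sets on each array, on a log axis with the same range in every panel, for A549 ρ°, A549 ρ+, 143BTK- ρ° and 143BTK- ρ+ cells. Points are arrays and the bar is the geometric mean, and GPX2 in A549 gave 21.9 to 51.3 in ρ° cells and 1375.4 to 1511.7 in ρ+ cells.

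GPX3, the glutathione peroxidase secreted into plasma, had 2 probe sets. In A549 ρ° cells 214091_s_at gave 36.3, 24.1 and 23.4, against 78.5, 91.0 and 63.8 in ρ+ cells, a log2 change of −1.49 ± 0.30 (SE) or 2.81-fold lower, without overlap. The other, 201348_at, gave 28.9, 10.0 and 21.7 in ρ° cells, against 145.4, 75.4 and 67.4 in ρ+ cells. These groups did not overlap either. The geometric mean of the ρ° signals of 201348_at, 18.4, was below the lowest one kept, 19.0, so it passed the filter only through the ρ+ arrays and its fitted change of −2.29 ± 0.44 (SE) gives no measured size. With 64 added, the changes were −0.62 for 214091_s_at and −0.90 for 201348_at.

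In 143BTK- cells GPX3 was low in both groups. For 201348_at the ρ° signals were 23.5, 5.2 and 31.4, against 29.3, 26.8 and 24.9 in ρ+ cells. For 214091_s_at they were 21.3, 3.6 and 38.3 in ρ° cells, against 28.9, 26.5 and 28.7 in ρ+ cells. Both overlapped, and the fitted changes of −0.78 ± 0.62 and −0.97 ± 0.75 (SE) rested on 1 array, ρ° B, without which they were 0.01 and 0.03.

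The other glutathione peroxidases showed no such separation in A549. GPX1, the widespread form of cytosol and mitochondria, gave 773.5, 567.0 and 792.3 in A549 ρ° cells, against 955.8, 804.7 and 387.9 in ρ+ cells, with a log2 change of 0.07 ± 0.30 (SE) and a 95% interval of −0.60 to 0.75. The lowest of these was ρ+ C, and without it the change was −0.32. GPX4, which reduces lipid hydroperoxides within membranes, gave 1015.2, 812.6 and 622.4 in A549 ρ° cells, against 661.2, 692.1 and 581.4 in ρ+ cells, a change of 0.32 ± 0.20 (SE) with overlap.

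For GPX1 in 143BTK- the ρ° signals were 799.5, 542.5 and 808.1, against 1035.0, 768.7 and 891.7 in ρ+ cells (log2 change −0.34 ± 0.22, SE). GPX4 gave 889.3, 999.4 and 664.6 in 143BTK- ρ° cells, against 624.7, 662.0 and 859.8 in ρ+ cells (0.24 ± 0.22, SE). Each of these overlapped between the groups.

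Thioredoxin was lower in A549 cells without mitochondrial DNA. TXN 208864_s_at gave 1389.8, 1504.0 and 1433.3 in A549 ρ° cells, against 2858.9, 3664.8 and 3375.7 in ρ+ cells. The 3 ρ° arrays agreed closely and all lay below the ρ+ arrays, and the change of −1.19 ± 0.14 (SE) was 2.28-fold lower. TXN lies on chromosome 9, where the median change over the kept probe sets was −0.31, and relative to that median its change was −0.87, a comparison added after the data were seen. The dimmer TXN probe set 216609_at gave 66.7, 161.4 and 91.8 in A549 ρ° cells, against 155.6, 249.3 and 234.9 in ρ+ cells, and overlapped through 1 ρ° array (−1.07 ± 0.33, SE).

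In 143BTK- cells TXN 208864_s_at gave 553.7, 597.9 and 387.6 in ρ° cells, against 589.9, 805.2 and 594.2 in ρ+ cells, with overlap and a change of −0.38 ± 0.24 (SE). Its change in A549 minus that in 143BTK- was −0.81 ± 0.27 (SE), which was not called as a difference between the lines. The dimmer probe set 216609_at varied from 11.1 to 55.7 in 143BTK- ρ° cells and from 10.9 to 56.5 in ρ+ cells (0.28 ± 0.73, SE).

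Catalase was the member that was higher in A549 ρ° cells, on 1 of its kept probe sets. CAT 211922_s_at gave 275.7, 263.7 and 333.6 in A549 ρ° cells, against 158.1, 160.6 and 110.8 in ρ+ cells, without overlap. The log2 change was 1.04 ± 0.22 (SE), or 2.05-fold higher. The brighter CAT 201432_at gave 759.1, 548.3 and 934.5 in ρ° cells, against 465.5, 548.9 and 596.7 in ρ+ cells, where ρ° B fell within the ρ+ range, and its change was 0.45 ± 0.21 (SE). Relative to the median change of chromosome 11, 0.19, the changes were 0.85 for 211922_s_at and 0.26 for 201432_at. The third, 215573_at, was not kept in either line, with signals of 2.0 to 10.7 in A549 ρ° cells and 2.3 to 17.0 in ρ+ cells. In 143BTK- it gave 0.8 to 1.9 in ρ° cells and 0.9 to 7.4 in ρ+ cells.

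In 143BTK- cells CAT 201432_at gave 188.6, 197.9 and 205.8 in ρ° cells, against 208.7, 218.0 and 300.6 in ρ+ cells. The ρ° arrays lay below the ρ+ arrays by a narrow gap (−0.28 ± 0.24, SE). CAT 211922_s_at overlapped there, with 91.8, 81.4 and 61.4 in ρ° cells and 63.1, 79.9 and 84.6 in ρ+ cells (0.04 ± 0.27, SE). The changes in A549 minus those in 143BTK- were 1.00 ± 0.35 for 211922_s_at and 0.73 ± 0.32 for 201432_at (SE). Neither was called as a difference between the lines in the fit across all probe sets kept in both.

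SOD1, the copper and zinc dismutase of the cytosol, was at similar signals in the groups. It gave 2170.6, 1941.4 and 2260.7 in A549 ρ° cells, against 1771.4, 2117.2 and 2170.6 in ρ+ cells, a log2 change of 0.08 ± 0.14 (SE) with a 95% interval of −0.24 to 0.39. Relative to the median change of chromosome 21, 0.20, the A549 change was −0.12. In 143BTK- cells it gave 922.4, 988.3 and 1106.9 in ρ° cells, against 719.5, 917.4 and 1403.1 in ρ+ cells (0.04 ± 0.25, SE). Of the 4 probe sets annotated to SOD2 together with SOD2-OT1, 215078_at was not kept in either line, and none of the other 3 separated the groups. In A549 the brightest of them, 221477_s_at, gave 154.3, 266.8 and 102.8 in ρ° cells, against 97.3, 131.8 and 72.2 in ρ+ cells (0.73 ± 0.35, SE), whereas 215223_s_at and 216841_s_at had changes of −0.41 ± 0.25 and −0.65 ± 0.36 (SE). In 143BTK- the changes were 0.76 ± 0.41 for 221477_s_at, 0.18 ± 0.27 for 215223_s_at and −0.64 ± 0.52 for 216841_s_at (SE). The last of these passed the filter there only through the ρ+ arrays and gives no measured size. The probe sets that share this locus thus differed in sign, and their signal cannot be divided between SOD2, the manganese dismutase of the mitochondrial matrix, and SOD2-OT1.

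PRDX3, the peroxiredoxin of the mitochondrial matrix, was at similar signals in both groups on the brighter of its probe sets. Its bright probe set 201619_at gave 1297.7, 1295.8 and 1239.2 in A549 ρ° cells, against 1186.4, 1284.5 and 1400.6 in ρ+ cells, a log2 change of −0.01 ± 0.14 (SE) with a 95% interval of −0.32 to 0.30. In 143BTK- cells it gave 1157.8, 925.8 and 1062.0 in ρ° cells, against 1073.1, 1176.9 and 1060.9 in ρ+ cells (−0.08 ± 0.17, SE). Both comparisons overlapped. The dim 209766_at overlapped as well, with 15.6 to 25.6 in A549 ρ° cells and 25 to 35.7 in ρ+ cells (−0.63 ± 0.38, SE). In 143BTK- it gave 13.8 to 33.0 in ρ° cells and 14.1 to 22.6 in ρ+ cells (0.15 ± 0.45, SE).

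As a description of what was selected, and not as a test of the members, 5 of the 12 kept single-gene probe sets were called in A549 (adjusted p under 0.05 in the fit across all kept probe sets), 1 higher and 4 lower (6 had an unadjusted p under 0.05, against 27.4% of all), over the 4 genes GPX2, GPX3, CAT and TXN. The 4 lower ones include GPX3 201348_at, which had passed the filter only through the ρ+ arrays. That is 41.7% of them, against 10.9% of all kept probe sets in that comparison, or 5.68% higher and 5.22% lower. The members were chosen on this same contrast and nothing is read from the count or the gap. The call of CAT 211922_s_at was lost without ρ° A, and that of GPX3 214091_s_at without ρ+ B. The same 5 probe sets were the ones whose groups did not overlap, against 31.9% of all kept probe sets, 15.8% with ρ° above and 16.1% with ρ° below. In 143BTK- cells 0 of 12 were called by limma, and 0 had an unadjusted p under 0.05. Over all kept probe sets of that line 0% were called and 1184, or 8.45%, had an unadjusted p under 0.05. The groups of 1 member probe set did not overlap in 143BTK-, with ρ° below, against 14.9% of all, 7.49% with ρ° below and 7.37% with ρ° above. The median member change was −0.32 in A549 and −0.06 in 143BTK-, while the median over all kept probe sets was −0.00 in each line.

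**Figure D2:**
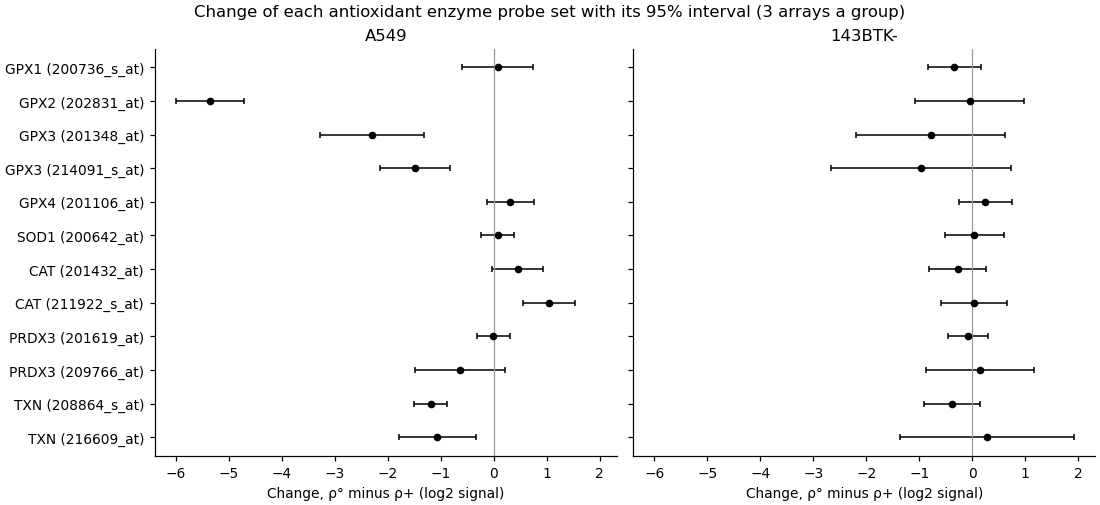
Log2 change, ρ° minus ρ+, of each kept single-gene member probe set in A549 and in 143BTK-, with the 95% interval of the fit. GPX2 in A549 lies at −5.36, whereas the 143BTK- changes lie between −0.97 and 0.28.

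The wider antioxidant system was followed through 51 further genes in 6 lists, of which 40 had a probe set of their own and 36 a kept one in A549. Of 47 kept probe sets in A549, 2 rose, 2 fell and 43 did not pass the test, which is 8.51% called against 10.9% of all kept probe sets, and the median change was −0.04. TXNL1, a thioredoxin-like protein bound to the proteasome, averaged 1245 ± 177 in A549 ρ° cells and 565 ± 118 in ρ+ cells (SD, n = 3 each), 2.22-fold higher (limma adjusted p = 0.00547). SLC7A11, the cystine importer that feeds glutathione synthesis, averaged 532 ± 31.5 in ρ° cells and 301 ± 62.0 in ρ+ cells on 209921_at (SD), 1.79-fold higher (limma adjusted p = 0.0233). Its other 2 probe sets did not pass, with log2 changes of 0.83 and 0.43.

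Of the genes that fell, GLRX2, the glutaredoxin of mitochondria and nucleus, averaged 282 ± 44.5 in A549 ρ° cells and 521 ± 43.9 in ρ+ cells (SD), 1.86-fold lower (limma adjusted p = 0.0151). SEPHS1, a relative of the selenophosphate synthetase that serves selenoprotein synthesis, averaged 40.2 ± 27.2 in ρ° cells and 135 ± 6.85 in ρ+ cells on 208940_at (SD), 3.87-fold lower (limma adjusted p = 0.0136). Its other 2 probe sets had changes of −0.67 and −0.23 and did not pass. The call of TXNL1 held in each of the 15 alternatives, whereas GLRX2 lost its call in 4 of 15, SLC7A11 in 6 of 15 and SEPHS1 in 3 of 14. Within a line, leaving out both ρ+ C arrays is the same fit as leaving out ρ+ C, and these counts include it under both names. Among the arrays, leaving out ρ° A, ρ° B or ρ+ B ended the call of each of these last 3 probe sets, with limma adjusted p reaching 0.0788 for GLRX2, 0.105 for SLC7A11 209921_at and 0.0594 for SEPHS1. Without ρ+ B another SLC7A11 probe set, 217678_at, was called. SLC7A11 209921_at also lost its call without ρ° C or ρ+ A.

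By list in A549, glutathione synthesis and recycling had 1 probe set that rose and 1 that fell of 12 kept, the thioredoxin system 1 that rose of 11, and selenoproteins and selenocysteine synthesis 1 that fell of 10. The selenoprotein list had a median change of −0.46, the lowest of the 6 lists, with 9 of its 10 kept probe sets not passing. That list joins genes of selenocysteine synthesis, among them SEPHS1 with changes of −0.67, −1.95 and −0.23, to selenoproteins. Apart from the synthesis genes, its kept selenoproteins went in both directions and none was called. SELENOW changed by −0.83, MSRB1 by −0.14, SELENOF by 0.45 and SELENOT by 0.62. Glutathione peroxidase relatives and glutathione transferases, the other peroxiredoxins, and the dismutase partners had 7, 4 and 3 kept probe sets, and 0 of these were called by limma. Of those 14, 1 was higher and 2 were lower at an unadjusted limma p under 0.05, which 27.4% of all kept probe sets had.

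In 143BTK- cells 0 of 52 kept list probe sets were called by limma, against 0% of all kept probe sets. At an unadjusted limma p under 0.05, 2 were higher and 3 lower, where 8.45% of all kept probe sets had such a p. The median list change was −0.13. The smallest adjusted p was 0.358, for GCLM, the modifier subunit of the enzyme that starts glutathione synthesis, with 150.6, 98.7 and 150.6 in ρ° cells, against 280.1, 334.7 and 241.9 in ρ+ cells. Those groups did not overlap. Over the 47 list probe sets kept in both lines, 0 had a change that differed between the lines by limma at an adjusted p under 0.05, against 2% of all kept in both, with a smallest adjusted p of 0.0547. An unadjusted p under 0.05 was found for 12 of the 47, against 17.4% of all kept in both.

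**Figure D3:**
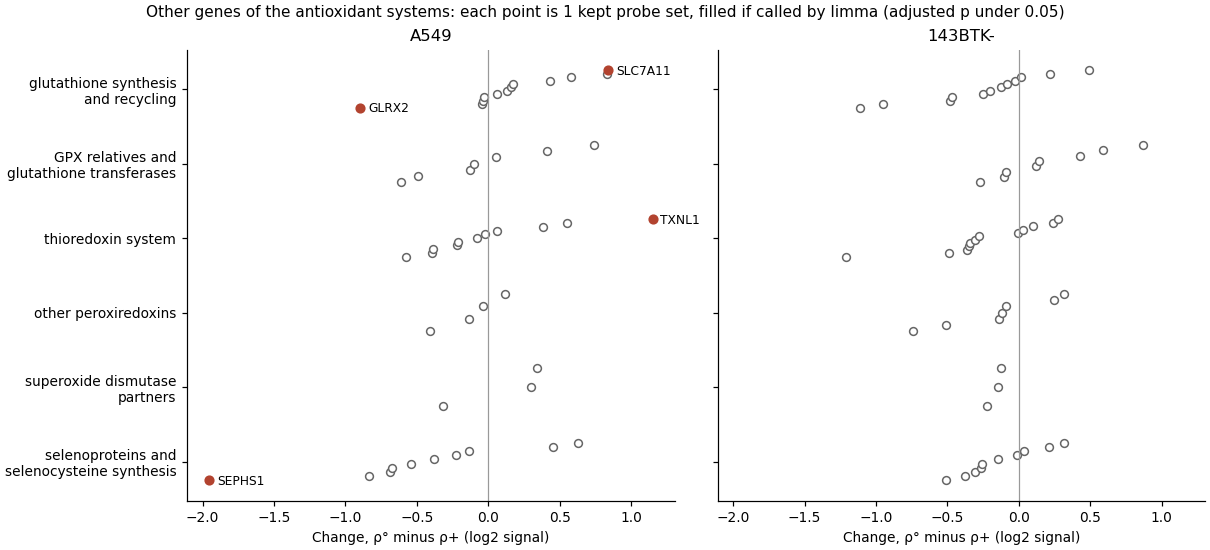
Log2 change, ρ° minus ρ+, of the kept probe sets in the 6 lists of the wider antioxidant system, by line, with called probe sets filled. In A549 2 probe sets rose and 2 fell of 47, where 10.9% of all kept probe sets were called. In 143BTK- 0 of 52 were called, where 0% of all kept probe sets were.

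The labels were set against cell type markers, as a check of the labelled lines. Of 5 kept epithelial probe sets, 1 each for KRT7, KRT8, KRT18, KRT19 and CDH1, 4 fell in A549 ρ° cells and 0 rose. Over all kept probe sets 5.22% were called lower and 5.68% higher. The 4 that fell include KRT19, which had passed the filter only through the ρ+ arrays. The summed epithelial signal over 8 probe sets was 4948 to 8662 in A549 ρ° cells, against 12746 to 15464 in ρ+ cells. KRT19, a keratin of simple epithelia, gave 2.1, 5.5 and 3.0 in ρ° cells, against 373.3, 381.4 and 471.4 in ρ+ cells. Its geometric mean in ρ° cells, 3.26, was below the lowest one kept, so that no fold or p is given. KRT18 was 2.56-fold lower (limma adjusted p = 0.00614), KRT8 2.21-fold lower (0.0246) and CDH1, the epithelial cadherin, 2.19-fold lower (0.0328). KRT7 did not pass (1.38-fold lower, limma adjusted p = 0.116), and the KRT8 and KRT18 probe sets are of a type that can also bind related sequences.

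EPCAM was not kept in A549, with 0.4 to 11.6 in ρ° cells and 1.4 to 12.8 in ρ+ cells, so that this epithelial marker was at the bottom of the signal range in both groups. Of 10 kept mesenchymal probe sets in A549, 0 were called by limma, and 2 had an unadjusted p under 0.05, 1 each for VIM and FN1. The leukocyte marker PTPRC was not kept in either line, with no signal above 10.9. In 143BTK- 5 of 6 mesenchymal genes had a kept probe set (COL1A2 had none), and so had 4 of 6 epithelial genes. Those were KRT7, KRT8, KRT18 and EPCAM, with KRT18 at 2832 to 4883 in ρ° cells and 3957 to 5027 in ρ+ cells, while KRT19 and CDH1 were not kept. By limma 0 of 16 kept epithelial and mesenchymal probe sets were called in 143BTK-. An unadjusted p under 0.05 was found for 3 of the 16, 1 each for KRT7, COL1A1 and CDH2. Those of KRT7 and COL1A1 passed the filter only through the ρ° arrays and give no measured size. Their geometric means in ρ+ cells, 11.2 and 7.48, were below the lowest one kept in 143BTK-, 12.4. The part of the epithelial markers in the GPX2, GPX3 and TXN results was not tested.

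**Figure D4:**
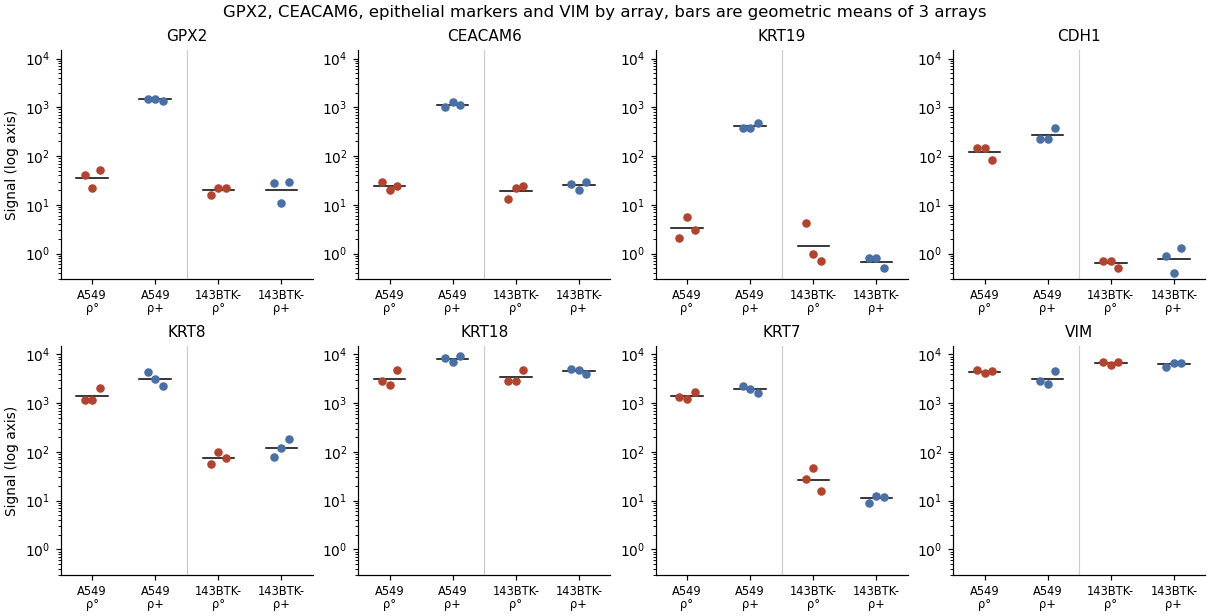
Normalized signal on a log axis of GPX2, of CEACAM6, whose pattern ran closest to it, of 5 epithelial markers and of VIM on each array, with bars at the geometric mean, ρ° left of ρ+ within each line. In A549, GPX2, CEACAM6 and KRT19 were each at lower signals on all 3 ρ° arrays than on any ρ+ array.

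The genes whose pattern was most like that of GPX2 were sought over the 12 arrays, after each line's mean was subtracted, among single-gene probe sets kept in both lines. The arrays stand in A549 ρ° and ρ+ clusters with the 143BTK- arrays between them, so these correlations rest on the A549 difference and are given as a description only. CEACAM6, an adhesion glycoprotein of epithelia, was first (r = 0.986), with 29.6, 20 and 24.7 in A549 ρ° cells, against 997.7, 1269.8 and 1102.3 in ρ+ cells, a log2 change of −5.51. FBN2, a fibrillin (r = 0.973), RNPS1, an RNA-binding splicing protein (0.968), SCML1 (0.954) and RNF187 (0.948) followed. FBN2 reached no measured size in A549, the geometric mean of its ρ° signals, 13.0, being below the lowest one kept.

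The opposite pattern was led by ALCAM, a cell adhesion molecule (r = −0.967), with 989.2, 825.5 and 646.2 in A549 ρ° cells, against 122.2, 124.7 and 182.6 in ρ+ cells, a change of 2.52. PNMA8A (−0.966), ROBO1, a receptor for Slit guidance proteins (−0.962), RAB13, a small GTPase (−0.960), and PLIN2, a lipid droplet coat protein (−0.956), came next. In 143BTK- cells the changes of CEACAM6 and ALCAM were −0.37 ± 0.38 and 0.07 ± 0.25 (SE), with overlapping groups. FBN2 was higher there in ρ° cells, at 282.3 to 305.9 against 197 to 274.6 in ρ+ cells (0.34 ± 0.22, SE). Its groups did not overlap, where 7.37% of all kept probe sets had ρ° above, and those of the other genes named here overlapped.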

How the data were processed

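The authors prepared labelled cRNA from 12 µg of total RNA for each HG-U133A array and deposited signals computed with Affymetrix Microarray Suite (MAS5), an intensity per probe set, which per the study's methods were quantile normalized within each cell line. Detection calls were not used. The deposited intensity values were used on the log2 scale, which was computed here. Of 22283 probe sets, 22215 were not controls; 19065 of these had 1 gene in the platform annotation, 1043 several and 2107 none, and 19053 of the 19065 matched a RefSeq gene. Within each line, the probe sets of highest mean log2 signal were kept, as many as the study retained (58.8% in A549 and 62.9% in 143BTK-). The ρ° and ρ+ arrays of a line were compared with limma 3.58.1 in R 4.3.3 (lmFit, eBayes with an intensity trend) and p-values were adjusted by Benjamini-Hochberg over all kept probe sets at 0.05. One fit over the 12 arrays gave the difference between lines. The design has few arrays, which limits the precision. Replicate arrays correlated at 0.900 to 0.965 within groups, and none were identical. The 95% intervals come from these fits. All member probe sets are described, and of the lists only called probe sets are named, with GCLM (the smallest adjusted p in 143BTK-) added after its values were seen. The genes most like GPX2 are the 5 of highest and the 5 of lowest correlation. Members and lists were chosen with earlier results of these data known. The script was tested on simulated data. Python 3.11.15 and its library matplotlib 3.10.9 served for the figures. The alternatives tried were leaving out each array or both ρ+ C arrays, a replicate block, no intensity trend, a minimum mean signal of 100 or none, adding 16 or 64 to the signals, cyclic loess, and joint quantile normalization of the 12 arrays. Subtracting the chromosome's median change was added after the data were seen.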

Additional observations from a re-analysis of the deposited data

Results flagged for a closer look

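The change of GPX2 202831_at in A549 minus that in 143BTK- was −5.31 ± 0.54 (SE, n = 3 arrays a group) on the log2 scale, and it is listed for this gap between the lines. In A549 the signals were 21.9 to 51.3 in ρ° cells and 1375.4 to 1511.7 in ρ+ cells, and in 143BTK- they were 16.1 to 22.1 in ρ° cells and 10.9 to 29.0 in ρ+ cells. GPX2 was chosen with its A549 change known, so the gap was fixed in part by the selection and is a description, not a test.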

How the results depend on the processing

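Over 460 recomputed values of the 30 member changes, 450 moved by less than the spread between arrays, 10 moved by more, and no called change turned its sign. The 460 hold the fit without ρ+ C under both of its names, since within a line leaving out both ρ+ C arrays is the same fit. The GPX2 change in A549 ranged from −5.62, without ρ° C, to −3.92, with 64 added, and that of TXN 208864_s_at from −1.29 to −0.87. The number of all probe sets called in A549 was 1428, against 770 without the intensity trend and 429 to 1947 with 1 array left out, and the number of list probe sets called was 4, against 2 without the trend, 7 without ρ+ C and 1 to 7 with 1 array left out. The member calls in A549, 5, ranged from 4 to 6. At a mean signal of at least 100 neither GPX3 probe set was kept, while TXN 216609_at was called. That TXN probe set was also called with 64 added, with the replicate block and without ρ° B. List probe sets whose change differed between the lines numbered 0, against 1 at a mean signal of at least 100, 2 without both ρ+ C arrays and 0 to 1 with 1 array left out; the cause of these shifts was not tested. With the replicate letter as a block, 1440 probe sets, 6 members and 5 list probe sets were called in A549, and 1 probe set, no member or list one, in 143BTK-. The main fit did not treat the letters as pairs. The same-letter correlations of deviations were 0.104, 0.0466 and 0.0825 in A549, where each array correlated best with its own letter. In 143BTK- they were 0.364, −0.120 and −0.0265, where that held for A only. Whether the letters pair the samples is not settled by these values. What limits these data is the number of arrays and, for GPX2, GPX3 and the dim probe sets, low signals.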
